A study of Homo sapiens with 11 samples.

Results

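The HOX cluster genes are the human homeobox genes of the HOXA, HOXB, HOXC and HOXD clusters, taken here as every gene in the count tables whose GENCODE symbol is HOXA, HOXB, HOXC or HOXD followed by digits. The rule found 39 members among 23167 identifiers: 11 in HOXA on chromosome 7, 10 in HOXB on chromosome 17, 9 in HOXC on chromosome 12 and 9 in HOXD on chromosome 2. The cells were MDA-MB-231, an established human triple-negative breast cancer line that the labels spell MDA-MB231. RNA-seq compared 2 WT libraries, from cells given transfection reagent without siRNA, with 2 mH2A1.1 KD libraries, from cells collected at day 3 after an siRNA at 11 nM. WT here had no control siRNA, so an effect of transfecting any siRNA and an effect of losing mH2A1.1 cannot be told apart. ChIP-seq gave 1 peak list for mH2A1.1, a splice isoform of the histone variant macroH2A1, and 1 for total mH2A1, both from untreated cells. The input and the chromosome contact libraries are not analysed here.

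HOX genes encode transcription factors that set position along the body axis. Within a cluster the genes point the same way and are numbered by paralogue group, from group 1, used at anterior levels, to group 13, used at posterior ones. They bind DNA with TALE cofactors such as PBX and MEIS, are kept silent by polycomb complexes and are kept active by MLL (KMT2A) complexes. MacroH2A histones are known for their presence on silent chromatin, HOX clusters included, and are also found at some active genes.

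The libraries differed in depth, with 9794674 and 7856892 gene counts in WT replicates 1 and 2, and 5584962 and 2309549 in KD replicates 1 and 2. KD replicate 2 had 30 counts in all on chromosomes 21, 22 and X, against 367149 to 609961 in the other libraries, and the genes there were left out of the tests. No HOX cluster lies on them. MACROH2A1, whose count does not separate the mH2A1.1 isoform from mH2A1.2, had 3658 and 2993 counts in WT and 1449 and 635 in KD, and its log2 fold change was -0.44 ± 0.17 (SE, n = 2 against 2; adjusted p = 0.205, edgeR's quasi-likelihood test). Of the lists that mark the cell type, all 6 basal or mesenchymal genes had counts in every library and ESR1 and PGR had 0. Of 3 leukocyte genes in the tables the summed level was at most 0.395 CPM (counts scaled to a common library size) in any library. The summed level of 5 fibroblast genes was 33.1 and 37.6 CPM in WT and 61.0 and 93.1 in KD, with COL1A1 and COL1A2 holding most of it and DCN at 0 in every library. That of 8 luminal genes was 880 and 979 CPM in WT and 1419 and 2221 in KD, most of it KRT8 and KRT18. Whether these differences have a part in the HOX values was not tested.

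Promoters of 4 members are shown as examples of genes with and without counts. HOXA13 and HOXD1 had counts in every library and a start in an mH2A1 peak but not in an mH2A1.1 peak. HOXA10 and HOXA11 had no counts and a start in both. HOXA13 and HOXD1 were taken by expression level among members with a promoter in the table used, and the other pair was chosen after values were seen. Each sequence is the RefSeq reference (GRCh38.p14) from 250 bases before to 50 after the start, 5′ to 3′ on the gene's strand, with every CG dinucleotide in capitals.
HOXA13, minus strand, chr7:27200042-27200341: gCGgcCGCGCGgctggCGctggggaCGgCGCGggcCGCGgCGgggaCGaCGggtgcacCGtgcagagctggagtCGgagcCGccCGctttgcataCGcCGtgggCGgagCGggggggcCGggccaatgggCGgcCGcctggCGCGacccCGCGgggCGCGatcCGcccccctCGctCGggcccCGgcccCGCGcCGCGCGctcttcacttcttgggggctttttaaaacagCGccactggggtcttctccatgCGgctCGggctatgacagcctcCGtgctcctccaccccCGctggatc
HOXD1, plus strand, chr2:176188418-176188717: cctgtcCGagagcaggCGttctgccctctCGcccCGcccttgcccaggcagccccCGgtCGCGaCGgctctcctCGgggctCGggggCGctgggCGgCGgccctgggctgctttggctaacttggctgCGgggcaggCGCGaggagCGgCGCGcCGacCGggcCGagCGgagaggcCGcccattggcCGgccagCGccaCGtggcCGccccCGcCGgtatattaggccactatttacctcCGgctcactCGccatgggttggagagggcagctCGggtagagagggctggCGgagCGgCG
HOXA10, minus strand, chr7:27179812-27180111: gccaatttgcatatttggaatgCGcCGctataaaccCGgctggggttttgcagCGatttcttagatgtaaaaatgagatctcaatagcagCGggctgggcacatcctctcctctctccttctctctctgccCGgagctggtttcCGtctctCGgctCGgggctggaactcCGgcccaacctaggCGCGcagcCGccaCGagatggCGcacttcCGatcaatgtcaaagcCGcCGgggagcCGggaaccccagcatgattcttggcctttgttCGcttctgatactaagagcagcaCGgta
HOXA11, minus strand, chr7:27185183-27185482: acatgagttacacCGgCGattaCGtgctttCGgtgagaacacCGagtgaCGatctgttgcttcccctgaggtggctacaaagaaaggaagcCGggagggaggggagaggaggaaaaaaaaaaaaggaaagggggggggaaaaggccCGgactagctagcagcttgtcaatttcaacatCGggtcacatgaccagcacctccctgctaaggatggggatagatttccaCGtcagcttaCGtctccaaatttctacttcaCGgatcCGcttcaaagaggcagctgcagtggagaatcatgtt

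These 300-base windows held 44 CG dinucleotides in HOXA13, 36 in HOXD1, 21 in HOXA10 and 13 in HOXA11. As the 4 were picked, these numbers do not compare expressed with silent members. The window of HOXD8, at 0 counts, held 34, and that of HOXD4, which had counts, held 4. No window was available for HOXB9 or HOXB3. The table gave 26 distinct windows for 20 members, several of them alternative starts of HOXA3 and HOXA10. Their median was 22.5 CG dinucleotides, with a range of 0 to 44, beside a median of 14 over all promoter windows in the table, and 19 of the 26 were at or over 14. The median GC content was 58% in the HOX windows and 58.7% in all of them. No methylation was measured.

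Most HOX genes had no counts in these cells. Of the 39 members, 22 (56.4%) were at 0 in all 4 libraries, beside 21.1% of protein-coding genes outside the missing chromosomes. HOXA had 10 such genes, and HOXA13 was its one gene with counts. HOXB had 2 such genes, HOXB1 and HOXB13, at opposite ends of the cluster. HOXC had 5, HOXC5 and HOXC10 to HOXC13, and HOXD had 5, HOXD8 to HOXD11 and HOXD13. A count of 0 allows up to 3 counts, which is 0.316 and 0.395 CPM in WT and 0.567 and 1.42 CPM in KD. These limits and all counts cover counting error only. For a gene at 0, a level under them cannot be told from none at this depth.

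**Figure D1:**
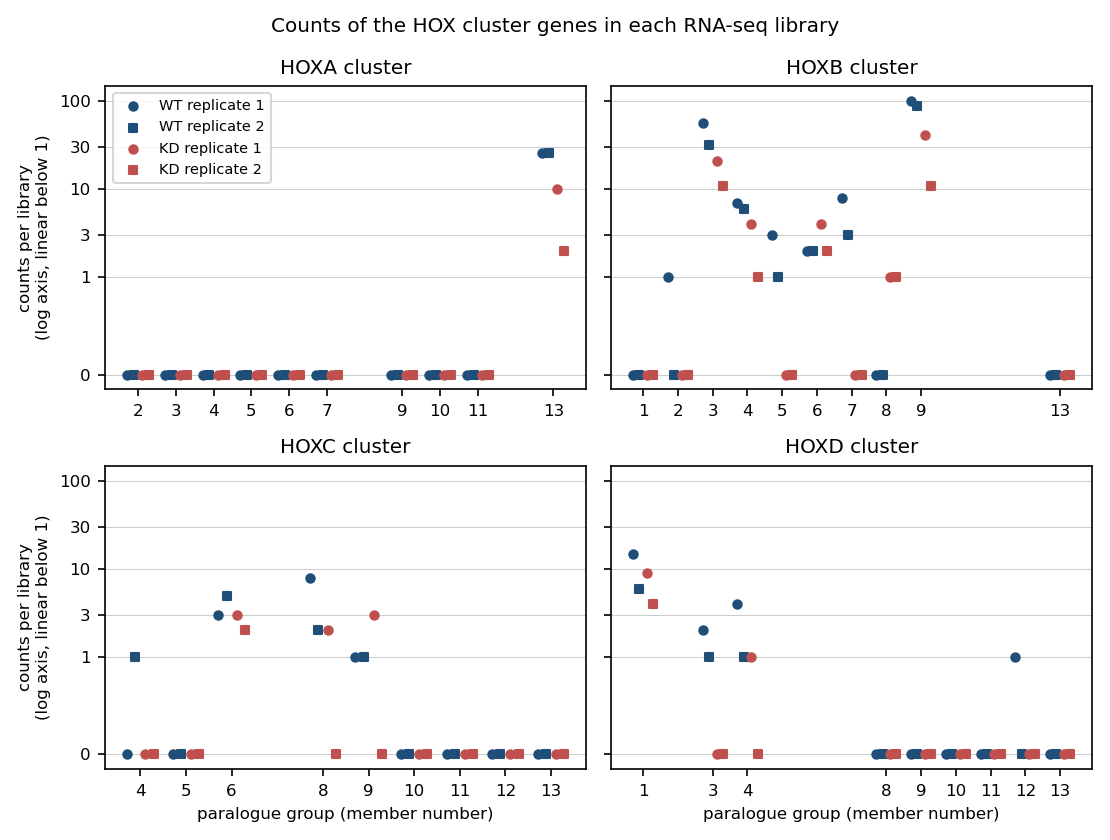
Counts of each HOX gene in each of the 4 RNA-seq libraries (vertical axis, logarithmic above 1 and linear below), by paralogue group (horizontal axis) in the 4 clusters, with WT in blue, KD in red, circles for replicate 1 and squares for replicate 2. Of the HOXA genes drawn HOXA13 is the one above 0, HOXB9 reaches 101 counts, and the counts are not scaled for library size, which was lowest in KD replicate 2.

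In WT, 4 genes held 84.8% of the 414 counts on all members: HOXB9, HOXB3, HOXA13 and HOXD1. HOXB9 alone held 45.7%. Per kilobase of exon, the scale on which genes can be set side by side, HOXB9 stood at 4.29 ± 0.26 CPM per kb in WT (SD, n = 2). HOXB3 followed at 0.69 ± 0.17, HOXD1 at 0.63 ± 0.30 and HOXA13 at 0.61 ± 0.10 CPM per kb, and these 3 did not differ beyond their spread. HOXB7 was at 0.41 ± 0.21, HOXB4 at 0.38 ± 0.02, HOXD4 at 0.24 ± 0.18, HOXC8 at 0.23 ± 0.17 and HOXC6 at 0.14 ± 0.07 CPM per kb. These rested on at most 8 counts in a library. HOXB4 had 7 and 6, so its small SD does not mean that it was measured better. The other members with WT counts had at most 3 in a library. The expressed genes thus lay in different paralogue groups, with the group 13 gene of HOXA, the group 1 gene of HOXD, and groups 3 and 9 of HOXB in front.

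HOXB9, a posterior-group factor, had 101 and 88 counts in WT and 41 and 11 in KD. Scaled to library size with TMM factors these were 10.6 and 11.6 CPM in WT and 7.75 and 5.20 CPM in KD. Each KD library lay below both WT libraries, which held for 32.4% of all genes tested. The log2 fold change was -0.70 ± 0.28 (SE, n = 2 against 2), with an unadjusted p of 0.0428 and an adjusted p of 0.209 in edgeR's quasi-likelihood test. An unadjusted p under 0.05 was found for 23.2% of genes tested. With offsets for GC content and exon length the log2 fold change was -0.96 and the adjusted p 0.0887 (edgeR), which passed the thresholds used, as did 5.35% of all genes under that setting. Without KD replicate 1 it was -1.10 with an adjusted p of 0.0215 (edgeR), but 41.8% of all genes passed there, and that setting assumes that the lone KD library varies like WT. Over all edgeR alternatives its adjusted p ran from 0.0215 to 0.980, the highest without WT replicate 1.

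HOXA13, the most posterior HOXA gene, needed for limb and urogenital development, had 26 and 26 counts in WT and 10 and 2 in KD. In CPM these were 2.74 and 3.42 in WT and 1.89 and 0.945 in KD, the last of them resting on 2 counts. Both KD libraries again lay below both WT libraries, which held for 32.4% of all genes tested. The log2 fold change was -0.93 ± 0.44 (SE, n = 2 against 2), with an adjusted p of 0.245 in edgeR. It was -1.68 without KD replicate 1 and -0.68 without KD replicate 2.

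HOXB3, an anterior-group factor with a role in the hindbrain, had 57 and 32 counts in WT and 21 and 11 in KD, or 5.996 and 4.21 CPM against 3.97 and 5.20 CPM. The groups overlapped, with KD replicate 2 between the WT libraries. The log2 fold change was -0.23 ± 0.35 (SE, n = 2 against 2; adjusted p = 0.686, edgeR), and without WT replicate 1 it was 0.08. HOXB3 shares 6.42% of its exon bases with HOXB4 and HOXB6 on the same strand, where the authors' counting drops reads.

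HOXD1, the group 1 gene of HOXD, had 15 and 6 counts in WT and 9 and 4 in KD, or 1.58 and 0.789 CPM against 1.70 and 1.89 CPM. Both KD libraries were above both WT libraries, which held for 32.5% of genes tested, and KD replicate 1 exceeded WT replicate 1 by less than the WT libraries differed from each other. The log2 fold change was 0.52 ± 0.53 (SE, n = 2 against 2; adjusted p = 0.540, edgeR). HOXD1 shares 7.69% of its exon bases with HAGLR on the opposite strand. With every gene of GENCODE release 44, on either strand, it shares 60.1%. Whether the annotation that was counted held those further genes is not given.

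**Figure D2:**
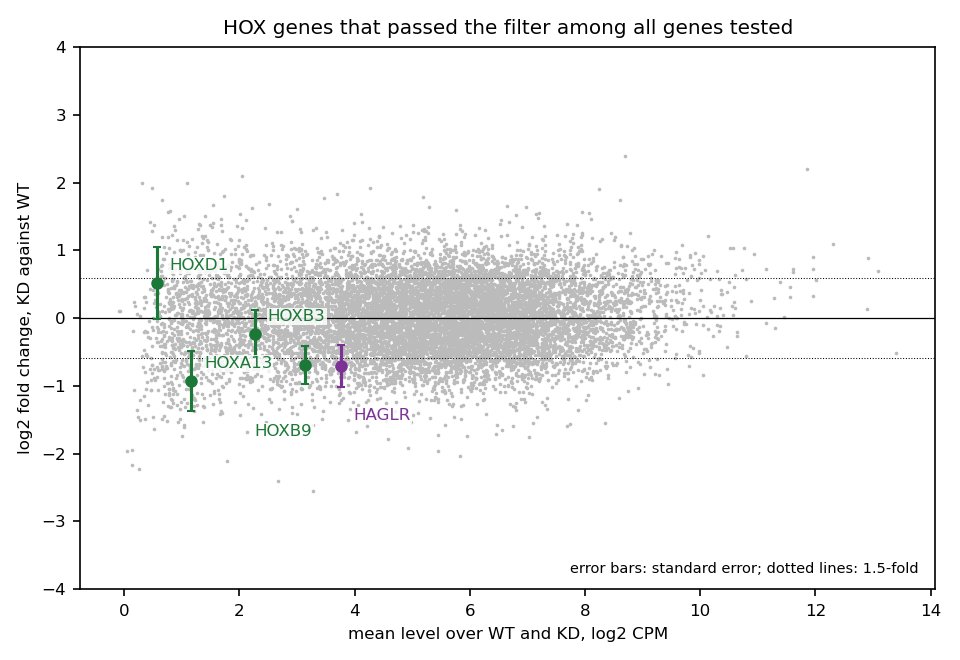
Log2 fold change of KD against WT (vertical axis) by mean level in log2 CPM (horizontal axis) for all 10963 genes tested, in grey, with the 4 HOX genes that passed the filter in green and HAGLR in purple, each with its standard error. HOXB9, HOXA13 and HAGLR lie below the lower dotted line (1.5-fold), at -0.70, -0.93 and -0.71, inside the cloud of other genes.

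These were the 4 members that passed the filter on low counts, of 10963 genes tested. A call needed over 1.5-fold change with an adjusted p under 0.1. None of the 4 was called, and edgeR called none of all genes either (0%), although 2540 had an unadjusted p under 0.05. DESeq2 called 875 of 7642 genes to which it gave an adjusted p (11.4%), 427 higher and 448 lower in KD. It gave no adjusted p to any HOX gene, so no call could be made for them there. Its log2 fold changes were -0.74 for HOXB9, -1.03 for HOXA13, -0.20 for HOXB3 and 0.57 for HOXD1. In edgeR, 3 of the 4 values were below 0, as were 5416 of all 10963 genes tested. The median of the 4 was -0.46, beside a median of 0.01 over all genes tested. With 2 libraries a group, an exact permutation test of a single value cannot give a p below 0.333.

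The 13 members with counts that did not pass the filter had at most 8 counts in a library, and their sum was 4.21 and 3.02 CPM in WT and 3.40 and 2.84 in KD, which overlapped. HOXB7 had 8 and 3 counts in WT and 0 and 0 in KD. The pooled WT level of HOXB7 was 1.59-fold the floor of 3 counts over both KD libraries. Counting error in WT is not allowed for there, so this is no lower bound on the change. The margin is lost without WT replicate 1, since WT replicate 2 was at 0.395 CPM and the floor at 0.405 CPM. It is also lost without KD replicate 1, which leaves a floor of 1.42 CPM. HOXB4 had 7 and 6 counts in WT and 4 and 1 in KD, or 0.74 and 0.79 CPM against 0.76 and 0.47 CPM, which overlapped. HOXC8 had 8 and 2 in WT and 2 and 0 in KD, and HOXD4 had 4 and 1 in WT and 1 and 0 in KD, so in these genes a few reads set the direction. HOXC6 had 3 and 5 counts in WT and 3 and 2 in KD, or 0.32 and 0.66 CPM against 0.57 and 0.95 CPM. HOXB6 had 2 and 2 counts in WT and 4 and 2 in KD, or 0.21 and 0.26 CPM against 0.76 and 0.95 CPM. Scaled for depth, both had a higher mean in KD, again on a few reads. HOXB6 and HOXC6 share 16.6% and 16.1% of their exon bases with neighbours on the same strand. Of the 23 members at 0 in both WT libraries, 1 had a count in both KD libraries, HOXB8 with 1 and 1, and among all genes at 0 in WT that share was 0.567%. HOXB8, singled out after its values were seen, was within the floor in both groups. No HOX gene silent in WT thus reached a countable level in KD at this depth.

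Summed over all 39 members, the counts were 239 and 175 in WT and 99 and 34 in KD. In CPM the sums were 25.1 and 23.01 in WT and 18.7 and 16.1 in KD. Both KD libraries were thus lower, a position that 32.4% of single genes tested also had. The log2 ratio of the means was -0.47, and -0.25 without HOXB9. By cluster, HOXB summed to 18.1 ± 1.0 CPM in WT and 12.9 ± 0.8 in KD (SD, n = 2), and HOXA, all of it HOXA13, to 3.08 ± 0.48 and 1.42 ± 0.67. HOXC summed to 1.22 ± 0.06 CPM in WT and 1.23 ± 0.40 in KD, and HOXD to 1.68 ± 0.89 in WT and 1.89 in each KD library. The lower KD sum therefore lay in HOXB and HOXA, and in HOXC and HOXD the groups differed by less than their spread. Within HOXB, HOXB9 alone was at 11.1 CPM in WT and 6.47 in KD, and HOXB3, the next highest, overlapped between the groups. The HOXB sum is thus no measure of the cluster as a whole. In bulk libraries, fewer cells that use a gene and less RNA per cell cannot be told apart.

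Between the HOX genes lie non-coding genes, of which 18 of the 25 listed were in the tables and 15 of those had no counts in any library. HAGLR, a long non-coding RNA read from the strand opposite HOXD1, was the one that passed the filter. It had 197 and 101 counts in WT and 60 and 19 in KD, or 17.0 ± 5.3 CPM against 10.2 ± 1.7 (SD, n = 2). The log2 fold change was -0.71 ± 0.31 (SE, n = 2 against 2), with an adjusted p of 0.221 (edgeR). It passed the thresholds with no filter on low counts (-0.73, adjusted p = 0.0735), without KD replicate 1 (-0.95, adjusted p = 0.0100) and without KD replicate 2 (-0.60, adjusted p = 0.0429), settings in which 14.2%, 41.8% and 8.05% of all genes did. Without WT replicate 1 the value was -0.37, with an adjusted p of 0.980 (edgeR). HOXD1, which it overlaps, had a value above 0. HOTAIR, a HOXC non-coding RNA known to work with polycomb, had 0 and 2 counts in WT and 0 in both KD libraries.

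The genes that flank the clusters passed the filter in 10 of 16 cases listed, where 4 of the 39 members did. CBX5, which encodes the heterochromatin protein HP1 alpha and lies beyond HOXC, was at a log2 fold change of -0.65 ± 0.24 (adjusted p = 0.196 in edgeR and 0.102 in DESeq2). LNPK, an endoplasmic reticulum protein gene beyond HOXD, had 1255 and 908 counts in WT and 355 and 104 in KD. Its log2 fold change was -1.10 ± 0.21, with an adjusted p of 0.176 in edgeR and of 0.00493 in DESeq2, which called it lower. HIBADH, beyond HOXA, had a log2 fold change of 0.02 ± 0.19. EVX1 and EVX2, homeobox genes next to the group 13 ends of HOXA and HOXD, were at 0 in every library.

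Of the genes listed as acting with or on HOX genes, the count data covered 10 of 11 TALE cofactor genes and 9 of 11 polycomb core genes. For trithorax and MLL complex genes it was 13 of 13. All genes covered had counts in at least 1 library. The filter passed 6 TALE cofactor genes, none of which reached an unadjusted p under 0.05. The smallest p was that of PBX4, at a log2 fold change of 0.46 ± 0.26 (adjusted p = 0.293, edgeR). Of 12 trithorax and MLL complex genes tested, 2 had an unadjusted p under 0.05 and a value above 0 and 1 a value below it, a share near the 23.2% of all genes tested. KMT2A itself was at a log2 fold change of -0.09. PSIP1, which tethers MLL to chromatin, was at -0.84 ± 0.24, and DESeq2 called it lower with an adjusted p of 0.0575. KDM6B, a demethylase that removes the polycomb mark, was at 0.69 ± 0.21 (adjusted p = 0.194, edgeR), and the H3K4 methyltransferase gene KMT2D at 0.57 ± 0.20 (adjusted p = 0.194, edgeR).

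Of 8 polycomb core genes tested, 6 had a log2 fold change below 0, as did 5416 of all 10963 genes tested. The median of the 8 was -0.35, and neither edgeR nor DESeq2 called one of them. An unadjusted p under 0.05 was found for 4 of them, 3 with values below 0 and 1 above, beside 23.2% of all genes tested in either direction. RNF2, the H2A ubiquitin ligase, was at -0.67 ± 0.20, and SUZ12, a PRC2 subunit, at -0.62 ± 0.24. CBX2, a PRC1 reader subunit, had the smallest p of the list and was at 0.85 ± 0.22. Of 11 ParaHox and related homeobox genes, 8 were at 0 in every library, and EN2, which patterns the midbrain, was the one tested, with 34 and 31 counts in WT and 7 and 6 in KD and a log2 fold change of -1.08 ± 0.44 (adjusted p = 0.210, edgeR).

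Both peak lists were dense over the HOX clusters. From the first to the last base of their members, the 4 clusters spanned 522711 bases, of which 43.6% lay in mH2A1.1 peaks and 37.0% in mH2A1 peaks. Over the primary chromosomes these shares were 9.40% and 7.87%. Stretches in both lists covered 22.9% of the clusters and 4.44% of the chromosomes. The clustered protocadherin genes of chromosome 5, taken as another long array of related developmental genes, spanned 726842 bases, of which 6.19% lay in mH2A1.1 peaks and 1.24% in mH2A1 peaks. Each list comes from 1 library called with its own parameters and carries no height, so the lists show presence, and a difference between them could not be tested.

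**Figure D3:**
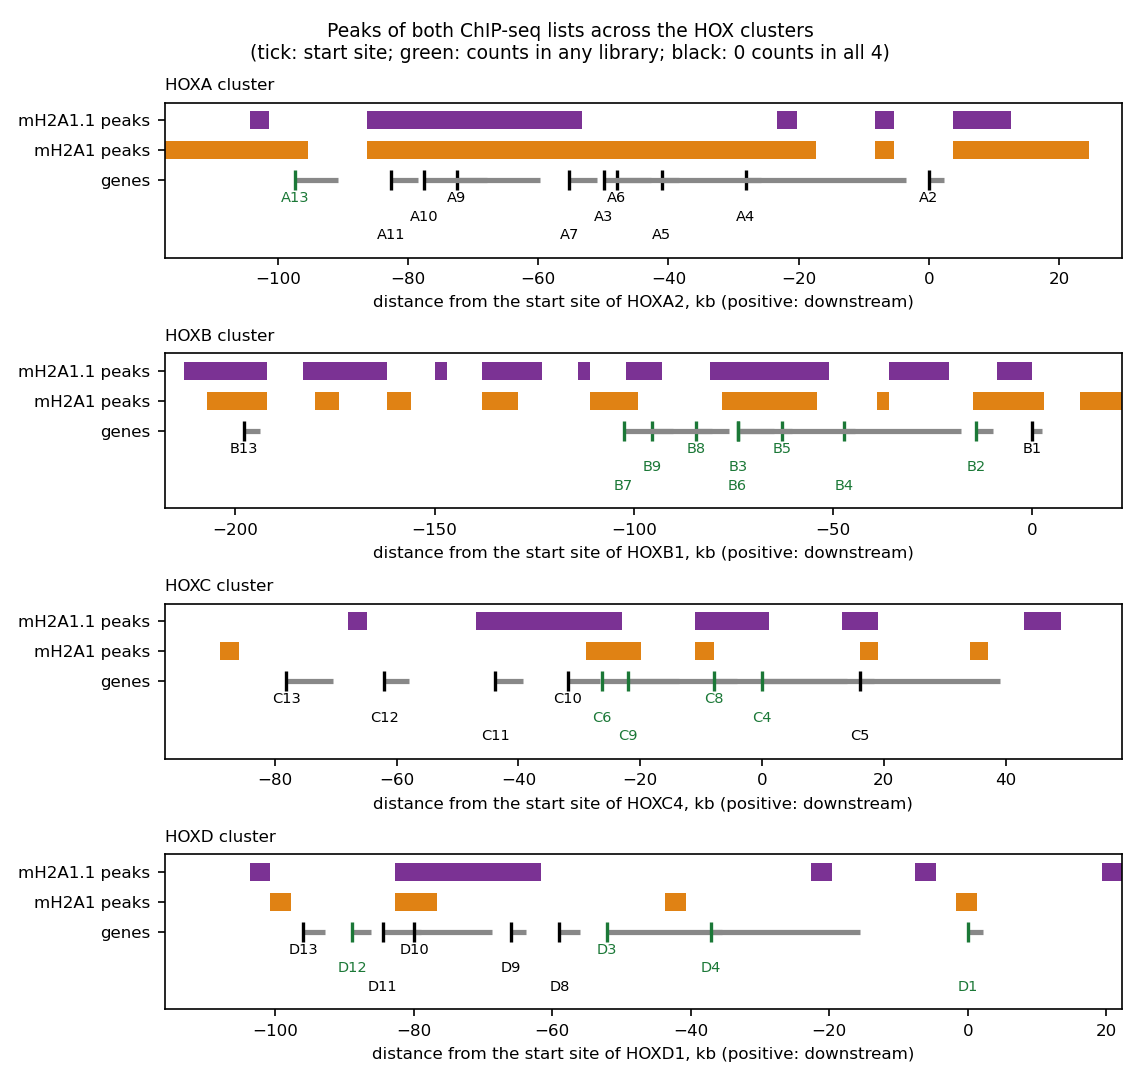
Peaks of mH2A1.1 (purple) and of total mH2A1 (orange) across the 4 HOX clusters with 20 kb on each side, drawn by distance in kb from the start site of the lowest numbered member drawn, with the group 13 end on the left. Grey lines are genes, with a tick at each start in green where any library had counts and in black where all 4 were at 0, and the 69 kb mH2A1 peak over HOXA3 to HOXA11 is the widest.

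In HOXA, which had counts on HOXA13 alone, mH2A1 peaks covered 74.8% of the cluster and mH2A1.1 peaks 42.0%. A single mH2A1 peak of 69000 bases (chr7:27120001-27189000) held the starts of 8 genes, HOXA3 to HOXA7 and HOXA9 to HOXA11. Inside it lay an mH2A1.1 peak of 33000 bases (chr7:27156001-27189000) with the starts of HOXA7, HOXA9, HOXA10 and HOXA11. The HOXA10 and HOXA11 promoters printed above lie in that stretch. Every base of HOXA in an mH2A1.1 peak was also in an mH2A1 peak. HOXA2 had a start in neither list. The HOXA13 start was in an mH2A1 peak of 24000 bases (chr7:27198001-27222000) and in no mH2A1.1 peak, and the rest of the gene ran into the gap between this peak and the long one.

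In HOXB the order was the other way, with 55.3% of bases in mH2A1.1 peaks and 41.6% in mH2A1 peaks. An mH2A1.1 peak of 30000 bases (chr17:48582001-48612000) held the starts of HOXB3, HOXB5 and HOXB6, and an mH2A1 peak of 24000 bases inside it held the same 3. HOXB9, the most expressed HOX gene on the scale per kilobase, had its start in an mH2A1.1 peak of 9000 bases (chr17:48624001-48633000) and outside the mH2A1 list. The outermost start of HOXB7 was in an mH2A1 peak that overlaps the far end of that one (chr17:48630001-48642000). HOXB4 and HOXB8 had starts in neither list, and HOXB1 and HOXB13, both at 0 counts, in both. The long stretch between HOXB9 and HOXB13 held several peaks of each list and, apart from the outer end of HOXB7, no member.

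In HOXC, 38.4% of bases were in mH2A1.1 peaks and 15.4% in mH2A1 peaks, and in HOXD 27.5% and 12.2%. An mH2A1.1 peak of 24000 bases in HOXC (chr12:53970001-53994000) held the starts of HOXC6, HOXC10 and HOXC11. In HOXD an mH2A1.1 peak of 21000 bases (chr2:176106001-176127000) held those of HOXD9 and HOXD10, both at 0 counts. The HOXD1 start was in an mH2A1 peak of 3000 bases (chr2:176187001-176190000) that no mH2A1.1 peak overlapped. The outermost starts of HOXD3, HOXD4, HOXD8, HOXD11, HOXD12 and HOXD13 were in neither list, although the other annotated start of HOXD11 and 67.8% of that gene lay in peaks of both. By outermost starts HOXD thus had 2 of 9 starts in mH2A1 peaks where HOXA had 10 of 11.

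**Figure D4:**
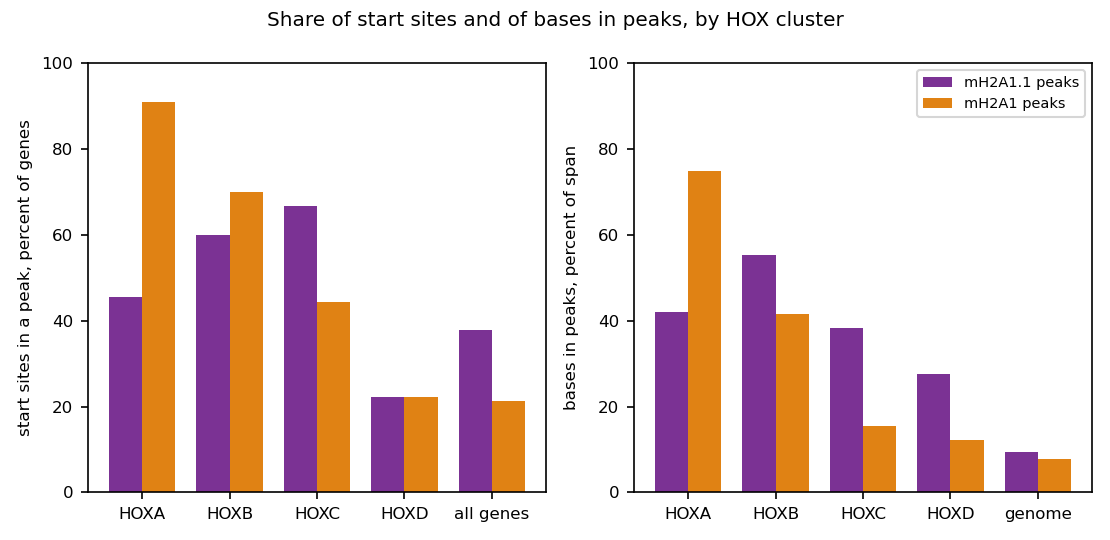
Percent of gene starts (left; start with 500 bp on each side) and percent of bases (right) in mH2A1.1 peaks (purple) and mH2A1 peaks (orange) for each HOX cluster, beside all matched genes or the primary chromosomes. HOXA has the highest mH2A1 shares, 90.9% of starts and 74.8% of bases, and HOXD the lowest of the clusters, 22.2% and 12.2%.

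Counted by start sites with 500 bp on each side, 19 of 39 members were in an mH2A1.1 peak and 23 in an mH2A1 peak. Among the 23061 genes matched to the annotation these shares were 37.8% and 21.2%. A further count, of starts in an mH2A1.1 peak that overlaps an mH2A1 peak anywhere, gave 19 members, beside 23.8% of genes. By cluster, starts in mH2A1.1 peaks were 5 of 11 in HOXA, 6 of 10 in HOXB, 6 of 9 in HOXC and 2 of 9 in HOXD, and starts in mH2A1 peaks were 10, 7, 4 and 2. Neighbouring starts often share a peak, so the members are not independent of each other.

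Among the 22 members at 0 in all libraries, 12 (54.5%) had a start in an mH2A1.1 peak and 13 (59.1%) in an mH2A1 peak. For the 3535 protein-coding genes at 0 in all libraries the shares were 25.1% and 25.3%. The 4 tested members all had a start in a peak of 1 list or both, as did 51.4% of tested protein-coding genes. HOXB3 had its start in both, HOXB9 in mH2A1.1 alone, and HOXA13 and HOXD1 in mH2A1 alone. Away from the start, an mH2A1 peak overlapped the mH2A1.1 peak of HOXB9. The paper reports that the total mH2A1 antibody recognised both isoforms, with less affinity for mH2A1.1 than the mH2A1.1 antibody. Of the 10506 tested protein-coding genes, 47.0% had a start in an mH2A1.1 peak and 18.6% in an mH2A1 peak. Of the 13 members with counts that were not tested, 5 (38.46%) had a start in an mH2A1.1 peak and 7 (53.85%) in an mH2A1 peak. For protein-coding genes of that kind the shares were 41.47% and 35.23%. Peaks were therefore found at both silent and expressed HOX genes, and the WT counts alone did not sort the members by list.

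Peak widths were described in the same way. Of the 20 mH2A1.1 peaks that touch a cluster, 7 had the smallest width of 3000 bases, or 35%, beside 60.3% of all 30687. Of 19 mH2A1 peaks it was 7 (36.8%), beside 60.6% of all 24222. Peaks of the other list overlapped 14 of the 20 and 14 of the 19, or 70% and 73.7%, against 38.6% and 48.3% in the whole lists. Widths were whole multiples of 3000 bases and peaks were never closer than 9000 bases, so a boundary at a single HOX promoter is finer than these lists show. The start used for a gene is its outermost annotated one, and in 6 members, HOXA3, HOXB3, HOXB7, HOXC4, HOXC6 and HOXD3, annotated starts lie over 10000 bases apart. With every annotated start counted, HOXB7 and HOXD11 also had one in an mH2A1.1 peak, HOXC4 and HOXD11 also had one in an mH2A1 peak, and HOXD3 had none in either.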

How the data were processed

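Gene counts of 2 WT and 2 KD RNA-seq libraries and 2 lists of ChIP-seq peaks were used. The deposited values are raw counts per gene, which the authors made with STAR 2.5.1 on GRCh38, a mapping quality filter at 10, removal of duplicates and htseq-count 0.8.0 at its defaults. Without molecular identifiers, duplicate removal can also discard separate molecules where coverage is dense. Which annotation was counted and the strand setting used relative to the stranded library kit are not given in the sources used here. ACTB ranked at most 4th and EEF1A1 at most 3rd by counts in each library. Reads that overlap exons of more than 1 gene are dropped by that counter, which can lower members that share exons. The authors called peaks with normR 1.8.0 against the input, with parameters adjusted per data set. The deposited peak score is 0 throughout, so it was not used, and peak positions are in base pairs on hg38.

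Of 23167 identifiers, 23061 matched GENCODE release 44, which gave symbols, starts and exon lengths. Those not matched held between 0.12% and 0.176% of counts and stayed in the tests. The test was edgeR 4.0.16, run in R 4.3.3 (TMM, its filter on low counts with a minimum of 10, quasi-likelihood test, Benjamini-Hochberg adjustment over all genes tested). Calls took the study's thresholds, over 1.5-fold change with an adjusted p below 0.1. Genes on chromosomes 21, 22 and X, 1722 in the tables, were left out because KD replicate 2 held under 5% of the usual share there. CPM uses library sizes after TMM, and depth limits are 3 counts of these. The study's own tool, DESeq2 1.42.0, served as an alternative. Both tools and the overlap code were tested on simulated data. Labels do not say that replicates came from separate cultures, so p-values measure the spread between these libraries. Starts were extended by 500 bp on each side, and 1 bp of overlap with a peak counted. Overlaps were computed in Python 3.11.15.

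The members, the other gene lists and the tests were chosen with earlier results of these data known. Per-library counts are given for the 2 members of each cluster with the highest WT level per kilobase of exon, for members with an unadjusted p under 0.05 and for those that passed the filter. Of other lists at most 3 genes are given, by smallest p or, beside the clusters, by WT level. HOXB4, HOXB6, HOXB7, HOXB8, KMT2A, EVX1, EVX2 and the marker genes fall outside that rule and were picked with their values in view. A member and a cofactor gene are not reported here by name. Promoters come from a RefSeq table that held 20 members. The alternatives were other size factors, filters, offsets, start windows and spans, and leaving out each library.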

Additional observations from a re-analysis of the deposited data

How the results depend on the processing

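The number of HOX genes called was 0 in the design used, with RLE size factors and with all chromosomes kept. In those settings 0 of all genes were called, so these zeros say nothing about HOX genes in particular. The number was also 0 under DESeq2, which gave no HOX gene an adjusted p, so none could be called. With no filter on low counts and with the replicate block it was 0 too. It was 1, HOXB9, with offsets for GC content and length, and 1 with the replicate block and those offsets together. Leaving out each library in turn gave 0 to 1. All genes called were 0 in the design used, 875 under DESeq2, 586 with the offsets, 2139 with no filter, 2208 with the replicate block, 809 with the block and the offsets, and 2 to 4744 when 1 library was left out, the highest without KD replicate 1 and the lowest without WT replicate 1. The cause of these differences was not tested. WT and KD share replicate numbers, but no label says that a number marks a shared culture or day, and the deviations of same-numbered libraries correlated at 0.252 across genes, which are not independent replicates. HOXB9 had an adjusted p of 0.1503 under the block alone and 0.0236 with the block and the offsets (edgeR). HAGLR passed the thresholds under the block (-0.75, adjusted p = 0.0830) and under the block with the offsets (-0.88, adjusted p = 0.0142; edgeR). The fold change of HOXB9 was below 0 in every setting, from -0.51 without KD replicate 2 to -1.10 without KD replicate 1.

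The median log2 fold change of HOX genes was -0.46, over 4 genes, and -0.95 with no filter, over 17 genes, some of them at 0 in KD, where a fitted value depends on the prior count and is no bound. Leaving out 1 library gave -0.79 to -0.44. HOXB3 turned to 0.076 without WT replicate 1 and ranged down to -0.43 without WT replicate 2. Of the 42 values of the 4 tested genes under alternatives, 38 kept their direction and were not called, those of DESeq2 without an adjusted p, and 3, all of HOXB9, passed the threshold. HOXD1 could not be fitted without either WT library, because it then failed the filter. The summed ratio of -0.47 became -0.25 without HOXB9 and ranged from -0.58 to -0.36 with 1 library left out. Starts in peaks ranged from 19 to 24 (mH2A1.1), 23 to 27 (mH2A1) and 19 to 23 (overlapping peaks) over 4 other windows, and the shares of all genes rose in the same windows except for the start alone. The share of cluster bases fell to 22.9% for either list when both lists had to cover a base. A stricter peak score was not run because every score is 0. Depth limits the silent genes: in KD replicate 2 a count of 0 allows a level of up to 1.42 CPM.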
